A study of Mus musculus with 6 samples.

Results

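The cholangiocyte and ductular reaction genes examined here are 9 markers of bile duct epithelium, Krt7, Krt19, Krt23, Epcam, Sox9, Cftr, Cldn4, Cldn7 and Spp1. They were chosen by name, with earlier results of these data known. Each had 1 row in the count and TPM tables, so that 9 of 33639 gene symbols are described. All mice were males lacking Abcg8 in the whole body, per the labels, and all were kept up to weaning on a diet low in sterols that held 0.005% ezetimibe, which blocks sterol uptake in the gut. They then received a low sitosterol, high sitosterol, ergosterol or stigmasterol diet for 12 weeks. Bulk RNA was sequenced from 4 livers, 1 for each diet, and from the adrenals of 2 groups, those on low and high sitosterol, with 1 mouse in each group. The age at collection, the sterol content of the diets, the deleted part of Abcg8 and the strain were not given in the sources that were used. Stigmasterol, a plant sterol like sitosterol, carries a side-chain double bond that sitosterol lacks, and ergosterol is a fungal sterol. The study asked how such diets alter liver gene expression, with the low sitosterol liver as its reference.

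Cholangiocytes line the bile ducts and modify bile by secreting chloride, bicarbonate and water. They share a keratin pair, adhesion molecules and tight junction claudins that hepatocytes carry little of or lack. In chronic liver injury, duct-like cells expand at the edge of the portal tracts together with matrix-forming and inflammatory cells, which is called the ductular reaction, and some hepatocytes can take on duct genes, Sox9 among them.

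With 1 library per group there was no replicate check and no test over samples, so the values compare libraries, not diets, and no p-value is given. Levels are given as TPM (a share of all transcripts that corrects for their length) when genes are set beside each other. Libraries of 1 tissue are compared on scaled CPM (estimated counts relative to the library total after TMM scaling, which corrects for a few very abundant genes). A ratio is a log2 ratio of scaled CPM with a 95% interval that covers counting error only, not differences between mice. A gene was called higher or lower at 2-fold or more with an interval that excluded equality, among the 13378 genes with at least 1 CPM in at least 1 liver.

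The library totals ran from 41546507 to 50573364 estimated counts. None of the 14 hepatocyte markers was at 0 in any liver, and Alb reached 35989 to 59322 TPM there against 12.2 and 13.9 in the adrenals. The adrenals went against the male label, since the Y-linked Eif2s3y had 0 and 2 counts there and 1293 to 1680 in the livers. Abcg8 had 51, 490, 394 and 788 counts in the low and high sitosterol, ergosterol and stigmasterol livers, which does not check the deletion because the removed part is not known. The low sitosterol liver stood apart by adrenal cortex markers, at a median of 0.175% of their level in the low sitosterol adrenal against 0.0062% to 0.0136% in the other livers. Those shares used TMM factors set within each tissue. With factors over the 6 libraries the median log2 ratio of low sitosterol adrenal to liver was 7.93, a larger share than 0.175%. Scaling cancels out of the counts that the adrenal would supply to the low sitosterol liver. These were 1.64 counts of Spp1 and at most 0.144 counts of any other of the 9 genes. That liver had 2298 counts of Spp1, and results are also given without it, against the other livers.

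The stigmasterol liver had the highest level of each of the 9 genes. Against the low sitosterol liver 9 of 9 were called higher, where 21.6% of all analysed genes were called higher and 7.8% lower, and the median log2 ratio was 3.65 against 0.08 over all analysed genes. Cftr, Cldn4 and Cldn7 reached 1 CPM in the stigmasterol liver alone and therefore had to differ to be analysed. Krt23 reached it in the ergosterol and stigmasterol livers, and Krt7, Krt19, Sox9 and Spp1 in each of the 4 livers. Of the 6 genes that reached 1 CPM in another liver too, 6 were called higher. The median of 3.65 was the value of Cldn7, 1 of the 3 genes that had to differ. The counts of other gene lists below hold such genes too, and where a list has any, the count without them is given. In bulk tissue, more cells of a type and more RNA per cell cannot be told apart, and neither can fewer cells and less RNA per cell. The summed level of the 9 genes was 43.9 TPM in the low sitosterol, 51.8 in the high sitosterol, 35.8 in the ergosterol and 1221 in the stigmasterol liver. Spp1 made up 81.8% to 91.5% of that sum. The other 8 genes summed to 5.13, 5.85, 6.53 and 104 TPM in the same order, so the high stigmasterol value did not rest on Spp1 alone. TPM moved the median log2 ratio of all analysed genes by 0.86 for stigmasterol against low sitosterol. These sums therefore set the stigmasterol liver further above the low sitosterol liver than scaled CPM does.

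**Figure D1:**
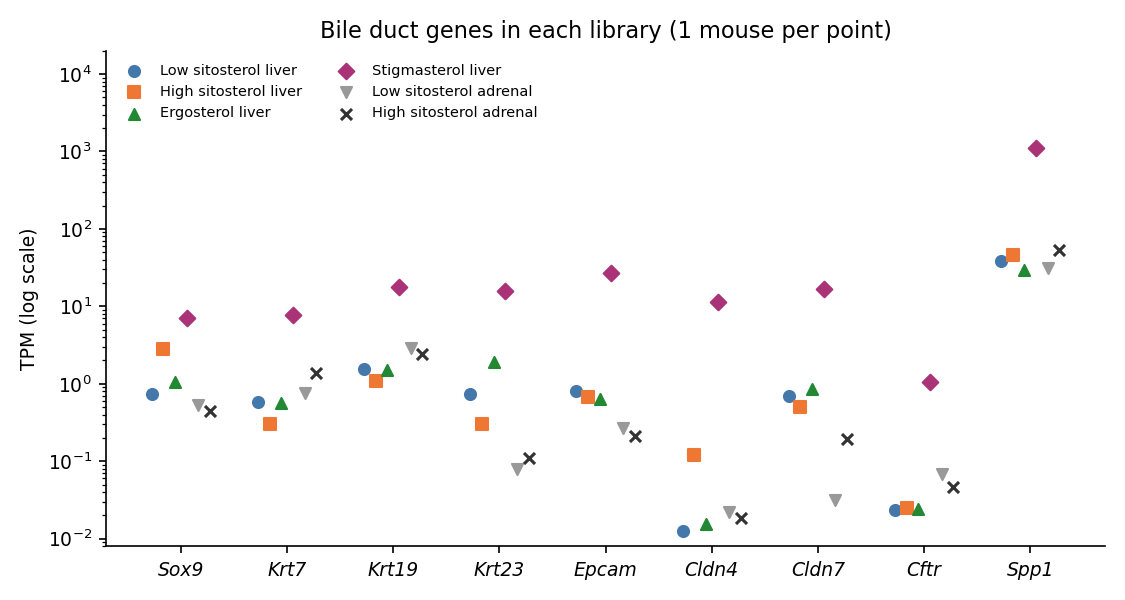
Level of each bile duct gene in the 4 liver and 2 adrenal libraries, in TPM on a log axis, with 1 point per library (1 mouse each) and no error bar because no group has replicates. The stigmasterol liver (diamonds) is the highest library for each gene, from 1.05 TPM for Cftr to 1117 TPM for Spp1.

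The diets other than stigmasterol gave no common direction. In the high sitosterol liver 2 of 9 genes were called higher (Sox9 and Cldn4), where 8.66% of analysed genes were, and 2 of 9 were called lower (Krt23 and Cldn7), where 4.3% were. The median log2 ratio of the 9 genes there was -0.35, against -0.05 over all analysed genes. In the ergosterol liver 0 of 9 were called in either direction, where 6.03% of analysed genes were called higher and 5.82% lower, and their median was -0.12 against 0.02. No test with replicates could be run on these libraries.

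**Figure D2:**
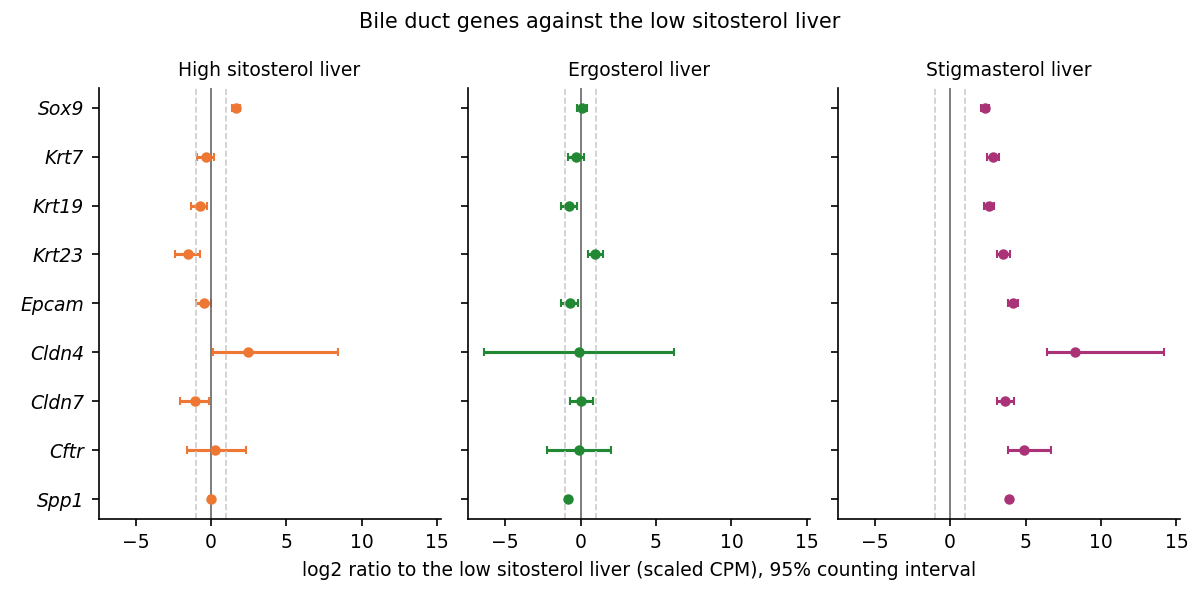
Log2 ratio of scaled CPM to the low sitosterol liver for each gene (points) with the 95% counting interval (bars), in the high sitosterol, ergosterol and stigmasterol livers; dashed lines mark 2-fold. In the stigmasterol panel each interval lies above 2-fold, while the other panels scatter around 0, and Cldn4 has wide intervals because it rests on 1 count in the low sitosterol liver.

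Promoter sequences are shown for 4 of the genes that were jointly higher in the stigmasterol liver, to let the start regions of a shared expression pattern be compared. RefSeq entries (GRCm38.p6) were found for 7 of the 9 genes, all but Krt19 and Sox9, and the 250 bases before the start were searched on both strands for 6 short motifs. For TEAD factors the motif was GGAATG. The motif of RBPJ, the factor of Notch signalling, was TGGGAA. For SOX factors it was ACAATG, and AP-1 was searched as TGANTCA. The TATA box was searched as TATAAA and the GC box as GGGCGG. Capitals mark the matches, on either strand, and no motifs overlap in the sequences printed. Cldn4 is at chr5:134946935-134947184 on the minus strand, Cldn7 at chr11:69964529-69964778 on the plus strand, Krt23 at chr11:99493121-99493370 on the minus strand and Spp1 at chr5:104434861-104435110 on the plus strand. Each is printed in the direction of its gene, 5′ to 3′.
Cldn4: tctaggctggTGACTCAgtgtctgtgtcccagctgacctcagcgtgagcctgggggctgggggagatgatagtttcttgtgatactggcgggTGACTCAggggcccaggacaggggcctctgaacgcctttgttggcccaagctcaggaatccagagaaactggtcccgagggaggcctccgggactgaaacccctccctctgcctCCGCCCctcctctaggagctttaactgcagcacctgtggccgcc
Cldn7: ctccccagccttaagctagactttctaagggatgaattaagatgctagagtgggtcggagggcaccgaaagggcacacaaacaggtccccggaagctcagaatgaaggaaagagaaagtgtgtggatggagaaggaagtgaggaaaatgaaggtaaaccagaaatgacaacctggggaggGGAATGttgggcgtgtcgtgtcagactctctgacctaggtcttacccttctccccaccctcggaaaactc
Krt23: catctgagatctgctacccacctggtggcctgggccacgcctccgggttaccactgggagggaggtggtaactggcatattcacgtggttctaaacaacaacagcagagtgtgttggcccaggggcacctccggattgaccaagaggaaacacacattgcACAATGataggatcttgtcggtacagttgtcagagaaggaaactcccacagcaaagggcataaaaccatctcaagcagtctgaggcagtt
Spp1: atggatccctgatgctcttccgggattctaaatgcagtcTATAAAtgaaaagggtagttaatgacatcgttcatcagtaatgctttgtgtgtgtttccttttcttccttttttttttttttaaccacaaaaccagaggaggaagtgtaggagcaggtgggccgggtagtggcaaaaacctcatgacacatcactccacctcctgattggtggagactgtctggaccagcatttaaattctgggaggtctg

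Cldn4 held the AP-1 motif at 240 and 158 bases before the start and a GC box at 44 bases. The AP-1 motif was present in 6.75% of the 32851 promoters of this length that were searched, with 1 chromosome left out. Cldn7 held the TEAD motif at 70 bases (12.6% of promoters), Krt23 the SOX motif at 90 bases (10.7%) and Spp1 the TATA box motif at 211 bases (12.4%). Of the promoters not printed, Krt7 held 4, Cftr 6 and Epcam 1 GC box, a motif present in 32.7% of promoters, with no other match. The GC boxes of Cftr at 192, 188 and 184 bases overlap each other. The RBPJ motif, present in 21.6% of promoters, was in 0 of the 7. No motif other than the GC box was found in more than 1 of the 7. A match describes letters and does not show a bound site.

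Sox9 encodes the transcription factor that sets up the bile duct lineage in development and that injured hepatocytes and duct cells can express (chr11:112782224-112787760, GRCm38, plus strand). It had 144 counts in the low sitosterol, 513 in the high sitosterol, 167 in the ergosterol and 1187 in the stigmasterol liver, or 3.52, 11.1, 3.75 and 17.4 scaled CPM. The high sitosterol and stigmasterol livers were both high and the other livers were close together. Against the low sitosterol liver the log2 ratio was 1.65 (1.39 to 1.93) for high sitosterol, 3.14-fold, and 2.30 (2.06 to 2.57) for stigmasterol, 4.93-fold. The ergosterol ratio was 0.09 (-0.24 to 0.42). Between the stigmasterol and high sitosterol livers Sox9 differed by 0.65 (0.50 to 0.80), 1.57-fold, and was not called. The other 8 of 9 were called higher in that comparison, where 16.4% of analysed genes were. On library totals and TPM Sox9 was at 1.15 and 1.28 and was called too. There the median of all analysed genes was at 0.60 and 0.70, against 0.10 on scaled CPM.

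Krt7 and Krt19 form the keratin filament pair of simple duct epithelium, Krt7 as the type II and Krt19 as the type I partner. Krt7 (chr15:101411043-101430313, plus strand) had 61, 54, 54 and 718 counts in the low and high sitosterol, ergosterol and stigmasterol livers. Krt19 (chr11:100140810-100148665, minus strand) had 78, 52, 50 and 778 counts in the same order. Among the livers only the stigmasterol liver was high for either gene. In TPM Krt19 lay above Krt7 in each liver, at 1.54, 1.08, 1.5 and 17.8 against 0.575, 0.302, 0.568 and 7.70. The log2 ratio of stigmasterol to low sitosterol was 2.81 (2.44 to 3.22) for Krt7 and 2.57 (2.24 to 2.94) for Krt19. In the high sitosterol liver Krt7 was at -0.35 (-0.91 to 0.20) and Krt19 at -0.76 (-1.30 to -0.24), and in the ergosterol liver at -0.30 (-0.85 to 0.25) and -0.76 (-1.31 to -0.23). All 4 were below 2-fold. Krt7 overlaps the antisense gene Gm671, and without strand information from the kit, reads of the overlap cannot be told apart.

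Krt23, a type I keratin that is low in healthy liver and known from stressed and duct-like liver cells, ordered the livers differently (chr11:99477974-99493137, minus strand). It had 49 counts in the low sitosterol, 19 in the high sitosterol, 105 in the ergosterol and 919 in the stigmasterol liver, or 1.2, 0.41, 2.36 and 13.5 scaled CPM. The high sitosterol liver was the lowest and the ergosterol liver the second highest. The log2 ratio to the low sitosterol liver was -1.52 (-2.39 to -0.75) for high sitosterol, a call, 0.97 (0.47 to 1.5) for ergosterol, just below 2-fold, and 3.48 (3.08 to 3.94) for stigmasterol. The ergosterol ratio passed 2-fold on library totals or on TPM, where the log2 value was at most 1.26. Between the ergosterol and high sitosterol livers it was called, at 2.49 (1.81 to 3.31), 5.62-fold higher in ergosterol.

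Other epithelial keratins gave a smaller difference. Of 9 listed, 4 were analysed in liver and 2 were called higher in the stigmasterol against the low sitosterol liver, with a median of 0.90. Without Krt17, which reached 1 CPM in the stigmasterol liver alone, 1 of 3 was called higher. Krt8 was at 1.26 (1.22 to 1.29) and Krt18 at 0.53 (0.50 to 0.57). Both are keratins of hepatocytes as well as of ducts. Krt17 was at 0 counts in the low sitosterol liver and at least 12.0-fold higher in the stigmasterol liver, with the 0 set to 3 counts.

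Epcam encodes an adhesion molecule of duct and progenitor epithelium that adult hepatocytes lack (chr17:87635979-87651129, plus strand). Its counts were 72 on low sitosterol, 58 on high sitosterol and 47 on ergosterol, and 2165 in the stigmasterol liver, or 1.76, 1.25, 1.05 and 31.8 scaled CPM. The log2 ratio of stigmasterol was 4.16 (3.84 to 4.53) to low sitosterol, 4.65 (4.29 to 5.07) to high sitosterol and 4.90 (4.50 to 5.36) to ergosterol, 17.9-fold to 29.8-fold. Among the 9 genes Epcam was the third most abundant in TPM in the low sitosterol liver and the second in the stigmasterol liver. The ratio of Krt19 to Epcam in TPM was 1.93, 1.58, 2.37 and 0.651 in the low and high sitosterol, ergosterol and stigmasterol livers.

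Cldn4 and Cldn7 encode tight junction claudins, which seal the space between duct cells and set its permeability to ions. Cldn4 (chr5:134945119-134946934, minus strand), whose promoter is printed above with its AP-1 matches, had 1, 9, 1 and 785 counts in the low and high sitosterol, ergosterol and stigmasterol livers. It was close to undetected in the low sitosterol and ergosterol livers and ranked as the 10th highest of 13378 log2 ratios of stigmasterol to low sitosterol. That ratio was 8.30 with a wide interval of 6.40 to 14.19, because it rests on 1 count. Against the high sitosterol liver, with 9 counts, it was 5.81 (4.96 to 7.02), 56.2-fold. The call of Cldn4 as higher in the high sitosterol than in the low sitosterol liver, at 2.48 (0.14 to 8.45), rests on the same low counts.

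Cldn7 (chr11:69964779-69967885, plus strand) had 30, 16, 34 and 636 counts, or 0.733, 0.345, 0.763 and 9.33 scaled CPM. Its log2 ratio of stigmasterol to low sitosterol was 3.65 (3.14 to 4.25), 12.5-fold. The high sitosterol liver was the lowest, at -1.06 (-2.06 to -0.16), a call that lies close to the 2-fold limit. The high sitosterol call of Cldn7 depended on the scaling. It was at -0.42 on TPM and at -0.87 on library totals and was called on neither. On log2 of TPM plus 0.1 Cldn4 was at 0.97 and not called. The added 0.1 made that ratio small, since Cldn4 was at 0.0126 and 0.121 TPM in the low and high sitosterol livers.

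Of 17 other tight junction genes analysed, 9 were called higher and 0 lower in the stigmasterol against the low sitosterol liver, with a median of 1.12. Of these Cldn23, Cldn8, Cldn6 and Marveld3 reached 1 CPM in the stigmasterol liver alone and had to differ, and of the other 13 genes 5 were called higher. Cldn23 was at 0 counts in the low sitosterol liver and at least 11.6-fold higher. Cldn8 was at 4.54 (3.51 to 6.11), Cldn6 at 3.61 (2.68 to 4.92) and Marveld3 at 3.08 (2.32 to 4.07). Of the 17, 1 was called higher in the high sitosterol liver, Marveld2 at 1.35 (1.08 to 1.63), and the median was 0.00.

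Cftr encodes the chloride channel through which cholangiocytes answer secretin (chr6:18170687-18322768, plus strand). It had 5, 7, 5 and 277 counts in the low and high sitosterol, ergosterol and stigmasterol livers, or 0.122, 0.151, 0.112 and 4.06 scaled CPM. It was the least abundant of the 9 genes in the stigmasterol liver, at 1.05 TPM, yet the log2 ratio to the low sitosterol liver was 4.92 (3.82 to 6.69), 30.3-fold. The high sitosterol and ergosterol livers did not differ from the low sitosterol liver beyond counting error, at 0.27 (-1.56 to 2.31) and -0.12 (-2.24 to 2.0). Cftr overlaps the antisense gene Gm15592 and the pseudogene Gm15595, whose reads cannot be told apart from its own with certainty.

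The list of bile duct secretion and cilium genes, which holds Cftr itself, had 14 analysed genes, 7 of them called higher and 0 lower in the stigmasterol against the low sitosterol liver, with a median of 0.97. Cftr, Sctr and Ggt1 reached 1 CPM in the stigmasterol liver alone, and of the other 11 genes 4 were called higher. Sctr, the secretin receptor, was at 4.84 (2.89 to 10.74), Ggt1 at 4.42 (2.45 to 10.32) and Ano1, a calcium-activated chloride channel, at 2.96 (2.47 to 3.54). Slc10a2, the apical bile acid transporter, was called higher in the high sitosterol liver, at 1.32 (1.21 to 1.43). There 2 genes of the list were called higher and 2 lower, the latter Ano1 at -1.29 and the water channel Aqp1 at -1.07.

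Spp1 encodes osteopontin, a secreted phosphoprotein made by duct cells and also by macrophages, which binds integrins and Cd44 (chr5:104435118-104441050, plus strand). It had 2298 counts in the low sitosterol, 2564 in the high sitosterol, 1430 in the ergosterol and 56243 in the stigmasterol liver, or 56.1, 55.4, 32.1 and 825 scaled CPM. It was the most abundant of the 9 genes in each library, at 38.8, 45.9, 29.3 and 1117 TPM in the same order. The low and high sitosterol livers were level, the ergosterol liver was lower and the stigmasterol liver stood far above. The log2 ratio to the low sitosterol liver was 3.88 (3.82 to 3.94) for stigmasterol, 14.7-fold, -0.02 (-0.10 to 0.06) for high sitosterol and -0.81 (-0.90 to -0.71) for ergosterol, 1.75-fold lower. Against the ergosterol liver the stigmasterol liver was 25.7-fold higher. Spp1 overlaps the gene model Gm42793, whose status is uncertain.

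Because macrophages also make osteopontin, 13 markers of lipid-associated macrophages were set beside it. In the high sitosterol liver 9 of them were called higher and 1 lower, with a median of 2.68, and Gpnmb had 957 counts against 4 in the low sitosterol liver, 188-fold. Spp1 was level between those livers on scaled CPM, at -0.02, and on library totals and TPM it was at 0.18 and 0.24, below 2-fold in each case. In the stigmasterol liver 9 were called higher and 1 lower, with a median of 3.16, and Gpnmb was 321-fold, Mmp12 82.1-fold and Itgax 50.6-fold higher than in the low sitosterol liver. Fabp5 was the marker called lower, at -4.65 (-4.72 to -4.59). In each of these livers 9 of the 13 macrophage markers were called higher, and Spp1 and Epcam only in the stigmasterol liver. In the ergosterol against the low sitosterol liver 4 of the 13 were called higher and 1 lower, with a median of 0.30. Of all analysed genes 6.03% were called higher and 5.82% lower in that comparison, and Spp1 was at -0.81. Between the stigmasterol and high sitosterol livers 4 of the 13 were called higher and 1 lower, with a median of 0.77. Among all analysed genes 16.4% were called higher there. The part of macrophages in the Spp1 value of the stigmasterol liver was not tested.

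**Figure D3:**
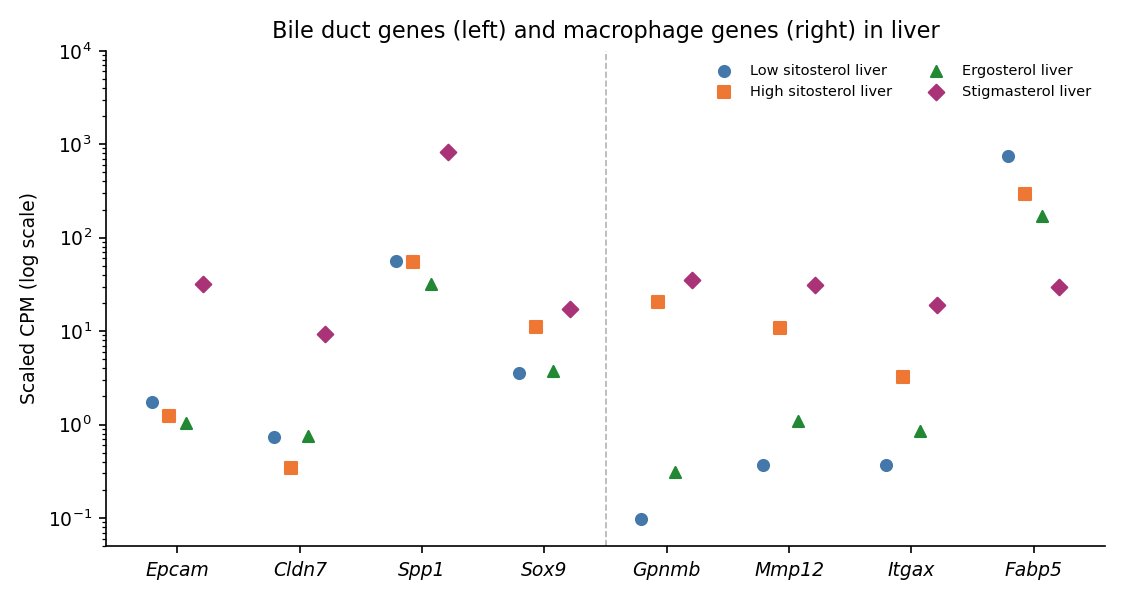
Scaled CPM on a log axis in the 4 livers (1 point per library) for 4 bile duct genes, left of the dashed line, and 4 lipid-associated macrophage markers, right of it. Gpnmb, Mmp12 and Itgax are higher in the high sitosterol and stigmasterol livers than in the other livers, whereas Epcam, Cldn7 and Spp1 are high in the stigmasterol liver alone and Sox9 is high in both.

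Of 13 osteopontin receptors and partners analysed, 9 were called higher and 0 lower in the stigmasterol against the low sitosterol liver, with a median of 1.21. Without the 4 genes that reached 1 CPM in the stigmasterol liver alone, among them Itgb6 and Mmp7, it was 6 of 9. The integrin subunits Itgb6 and Itga8 were at 4.08 (2.96 to 5.85) and 3.47 (3.25 to 3.71). The hyaluronan receptor Cd44 was at 1.95 (1.75 to 2.15). Mmp7, a metalloproteinase that cleaves osteopontin, was at 6.93 (6.04 to 8.23) on 1728 against 8 counts. Mmp7 was also called higher in the high sitosterol liver, at 1.57 (0.46 to 2.97) on 28 counts.

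The 9 genes lay toward the upper end of all log2 ratios of stigmasterol to low sitosterol, from rank 10 for Cldn4 to rank 1120 for Sox9 among 13378 genes. In the high sitosterol comparison they were spread from rank 231 for Cldn4 to rank 13061 for Krt23. Without the low sitosterol liver, the stigmasterol liver was called higher for 8 of 9 genes against high sitosterol, with a median of 4.65, and for 9 of 9 against ergosterol, with a median of 3.59 and 19.4% of analysed genes called higher. The diets were given for the same time, but no doses are known, so these values are set side by side as diets and not as equal amounts of sterol. Between the ergosterol and high sitosterol livers 2 of 9 were called higher (Krt23 and Cldn7), where 6.18% of analysed genes were, and 2 of 9 lower (Sox9 and Cldn4), where 8.96% were. These liver comparisons share libraries and are not independent of each other.

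**Figure D4:**
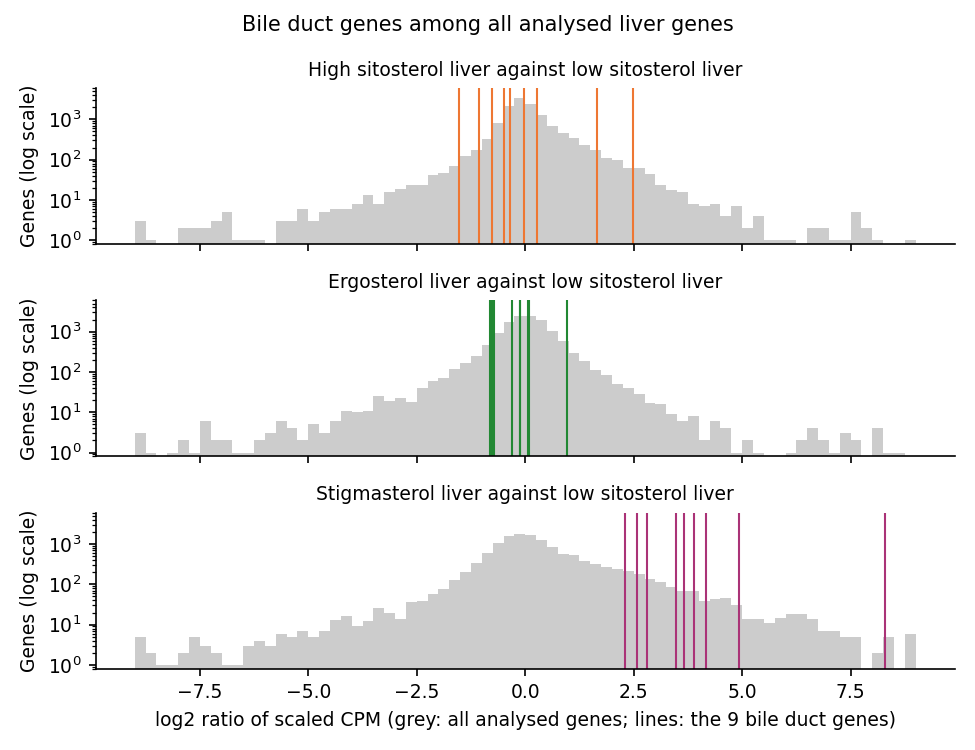
Number of analysed liver genes (grey bars, log axis) by log2 ratio to the low sitosterol liver in steps of 0.25, with the outermost bars holding all values beyond the axis, and the 9 bile duct genes as vertical lines. The lines lie between 2.30 and 8.30 for stigmasterol, and between -1.52 and 2.48 for high sitosterol and -0.81 and 0.97 for ergosterol.

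A list of 20 further bile duct epithelium genes, also chosen with earlier results of these data known, gave a like count. In the stigmasterol against the low sitosterol liver 18 were called higher and 1 lower, with a median of 3.71 (3.60 with genes at 0 counts set to 3 counts). Without the 7 that reached 1 CPM in the stigmasterol liver alone, 11 of 13 were called higher. The secreted lipocalin Lcn2 was at 4.64 (4.47 to 4.81) and the tetraspanin Tspan8 at 4.40 (4.09 to 4.75). The gene called lower was Onecut1, a transcription factor of hepatocytes and ducts, and it was lower in the high sitosterol liver too, at -2.93 (-3.10 to -2.78). Of the 20, 4 were called higher and 3 lower in the high sitosterol liver, with a median of -0.04, and Lcn2 was at 3.85 (3.67 to 4.03). In the ergosterol liver 0 were called higher and 4 lower. Lcn2 shared with Sox9 a high value in both the high sitosterol and the stigmasterol liver.

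Signalling genes that act on the duct lineage were also read. The Notch pathway, which directs duct fate, had 13 analysed genes, 7 called higher and 0 lower in the stigmasterol against the low sitosterol liver, with a median of 1.10. The target Hey1 was at 2.41 (1.66 to 3.37) there and at 2.33 (1.54 to 3.30) in the high sitosterol liver, the ligand Jag1 was at 2.03 (1.73 to 2.36) and the receptor Notch3 at 1.94 (1.48 to 2.47) in the stigmasterol liver. Of 14 YAP and TEAD target genes 11 were called higher and 0 lower, with a median of 1.99 (9 of 12 without Ankrd1 and Tgfb2, which reached 1 CPM in the stigmasterol liver alone), led by Ankrd1 at 5.37 (4.02 to 7.87), with Ctgf at 2.70 (2.52 to 2.88). In the high sitosterol liver 2 Notch and 5 YAP and TEAD genes were called higher and 0 lower, with medians of 0.30 and -0.13.

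Of 15 duct-inducing cytokines and receptors, 11 were called higher and 1 lower in the stigmasterol against the low sitosterol liver, with a median of 1.54. Without the 4 genes that reached 1 CPM in the stigmasterol liver alone, among them Cxcl5, Lif and Tgfb2, it was 7 of 11. The chemokine Cxcl5 had 0 counts in the low sitosterol liver and was at least 14.6-fold higher. Lif was at 3.75 (2.36 to 6.27), Tgfb2 at 3.13 (2.51 to 3.89) and Pdgfb at 2.80 (2.41 to 3.25). Of these genes 5 were called higher and 0 lower in the high sitosterol liver, with a median of 0.20, among them the monocyte chemokine Ccl2 at 2.49 (2.08 to 2.96).

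**Figure D5:**
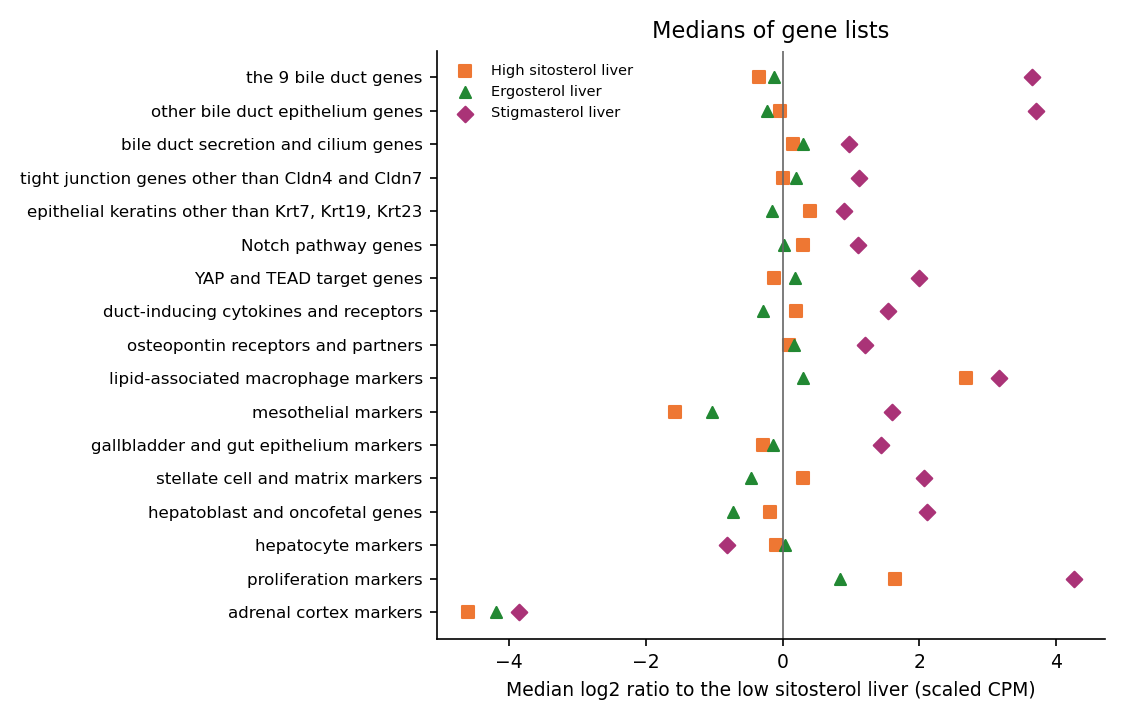
Median log2 ratio of scaled CPM to the low sitosterol liver over the analysed genes of each list, for the high sitosterol, ergosterol and stigmasterol livers (1 library each). The 9 bile duct genes and the further bile duct epithelium genes have medians of 3.65 and 3.71 for stigmasterol and lie near 0 for the other diets. Of these genes, 3 of 9 and 7 of 20 reached 1 CPM in the stigmasterol liver alone and had to differ. Hepatocyte markers have a median of -0.82 for stigmasterol, a value that depends on the scaling.

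Markers of other cells that could carry these genes, or that moved with them, were measured in the same comparison of stigmasterol with low sitosterol. Of 18 stellate cell and matrix markers 15 were called higher and 0 lower (median 2.07), with Col1a1 at 4.15 (4.01 to 4.29) and Timp1 at 4.84 (4.18 to 5.70). Those not called were Acta2 at -0.06, Tagln at 0.43 and Lrat at -0.08. In the high sitosterol liver Acta2 was called lower, at -2.82 (-3.22 to -2.45). The summed level of the 18 was 137 to 197 TPM in the other livers and 1015 in the stigmasterol liver, where TPM gives larger ratios than scaled CPM. Of 16 proliferation markers 13 were called higher and 0 lower (median 4.27), with Mki67 at 6.52 (5.82 to 7.45), and in the high sitosterol liver 10 were called higher (median 1.65). Of 6 hepatoblast and oncofetal genes 4 were called higher (median 2.12), among them Cd24a at 4.12 (3.8 to 4.47) and Sox4 at 3.78 (3.40 to 4.22). Cd24a is also in the list of further bile duct genes. Afp, at -0.09, and Gpc3, at -0.56, were not called. Of 14 hepatocyte markers 0 were called higher and 4 lower (median -0.82), among them Hnf4a at -1.02 (-1.05 to -1.0). Those 4 calls depended on the scaling. In TPM Hnf4a was at 124.2 in the low sitosterol and 116.2 in the stigmasterol liver. Serpina1a, with the lowest ratio of the 14, was at 4397.7 and 3611.4 TPM, less than 2-fold apart. Without genes that reached 1 CPM in the stigmasterol liver alone, the counts called higher were 13 of 16 for stellate cell, 12 of 15 for proliferation and 3 of 5 for hepatoblast genes. The part of these cells in the levels of the 9 genes was not tested.

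Mesothelial cells of the liver capsule also express Krt7 and Krt19. The mesothelial list, which includes those genes, had 6 analysed members, 4 called higher and 2 lower in the stigmasterol against the low sitosterol liver. The lower ones were Upk3b at -3.33 (-4.10 to -2.68) and Msln at -2.59 (-3.22 to -2.03), and besides Krt7 and Krt19 Wt1, at 1.17, and Gpm6a, at 2.03, were called higher. Without Wt1, which reached 1 CPM in the stigmasterol liver alone, 3 of 5 were called higher. The mesothelial markers thus did not share a direction in that comparison. Against the same low sitosterol liver 0 of the 6 were called higher and 4 lower in the high sitosterol liver, where 4.3% of analysed genes were lower. In the ergosterol liver 0 were called higher and 3 lower, where 5.82% were lower. Upk3b and Msln were highest in the low sitosterol liver, and Wt1 and Gpm6a in the stigmasterol liver. The part of mesothelial cells in the Krt7 and Krt19 counts of either liver was not tested. Of 6 gallbladder and gut epithelium markers analysed 3 were called higher and 1 lower (median 1.44), with Tff2 at 4.42 (2.45 to 10.32). The 3 called higher reached 1 CPM in the stigmasterol liver alone, and 0 of the other 3 were called higher. Of 11 listed Muc5b, Muc6, Cdx1 and Cdx2 were at 0 in the stigmasterol liver. Of 9 pancreatic acinar genes 1 was analysed, Cela1, at -1.41 (-1.56 to -1.27), and 6 were at 0 in the stigmasterol liver.

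The genes whose profile over the 4 livers was most like the median profile of the 9, among 8033 genes with at least 10 scaled CPM in their highest liver, were Muc1, Slc5a1, Itga8, Ect2 and Pmepa1. Their root mean square difference from that profile was 0.10, 0.12, 0.13, 0.14 and 0.17 on the centred log2 scale. Muc1, for example, had 0.977, 0.734, 0.673 and 11.9 scaled CPM in the low and high sitosterol, ergosterol and stigmasterol livers. For Epcam and also for Spp1 the nearest genes were Loxl1 and Sftpd. For Sox9 they were Ly6e (0.05) and Cd52 (0.07), with Ly6e at 212, 615, 238 and 912 scaled CPM in the same order. Krt7 was nearest to Gprc5b and Adamts9, Krt19 to Ltbp3 and Fstl1, and Cftr to Ect2 and Slc5a1. Cldn4 was nearest to Ly6d and Eln, Cldn7 to Adgrg1 and Lamc3, and Krt23 to Col15a1 and Adgrg1, at 0.27 and 0.29, a looser likeness than for the others. With 4 libraries, likeness mainly says that a gene was high in the stigmasterol liver.

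The adrenals, an organ without bile ducts, give the background of these genes outside the liver. Of the 9 genes 4 reached 1 CPM there, namely Krt7, Krt19, Sox9 and Spp1. In the low and high sitosterol adrenals Krt23 had 3 and 5 counts, Epcam 14 and 13, Cftr 10 and 3, Cldn4 1 and 1, and Cldn7 1 and 4. The adrenals thus had nearly no reads of Krt23, Cldn4 and Cldn7, whereas Krt7, at 0.765 and 1.36 TPM, and Krt19, at 2.92 and 2.41 TPM, lay at or above the low sitosterol liver (0.575 and 1.54 TPM). Spp1 was at 31.0 and 53.1 TPM.

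Between the high and low sitosterol adrenals 0 of these 4 genes were called, where 3.82% of the 14224 analysed genes were called higher and 2.31% lower. Spp1 came closest, at 0.90 (0.79 to 1.01), 1.87-fold. Sox9 was at -0.23 (-0.78 to 0.32) there and at 1.65 between the livers of the same diets. That difference between organs was not tested.

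Against the liver of the same diet, with TMM factors over the 6 libraries, 7 of 9 genes were called lower in the low sitosterol adrenal, where 22.4% of 15125 genes were, and 7 of 9 in the high sitosterol adrenal, where 22.7% were. Epcam was at -3.56 (-4.54 to -2.76) and -3.45 (-4.49 to -2.61) and Krt23 at -5.06 (-7.59 to -3.63) and -3.16 (-5.04 to -1.79). For Krt7 and Krt19 in the low sitosterol pair, at -1.46 and -1.15, the direction depended on the scaling: on library totals they were at 0.01 and 0.33, and TPM gave 0.36 and 0.88. In the high sitosterol pair they were at -0.88 and -0.67, and turned to 0.46 and 0.68 on library totals and to 1.85 and 1.09 on TPM, where they passed 2-fold as higher. Of the 7 genes called lower there, Krt23 (-0.95) and Cldn4 (-0.90) fell short of 2-fold on TPM, and Cftr and Spp1 changed sign, at 0.23 and 0.21. Library totals moved the median of all genes by 1.48 for low and 1.35 for high sitosterol. Epcam, Krt23 and Cldn7 were called lower in the low sitosterol adrenal on TPM too.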

How the data were processed

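The kit was TruSeq RNA v2, per the labels' protocols. The authors deposited estimated counts per gene symbol and a second table with TPM, for all 6 libraries. Per the submitters' processing notes, kallisto 0.43.1, HISAT2 2.0.5, Trimmomatic 0.33 and mm10 were used, in roles not stated. No source names the annotation behind the counts. Of the genes, 45.9% to 51.4% per library had deposited estimated counts that were not whole, and these were rounded. 1 row naming no gene held 0% of counts and was left out.

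TMM factors (edgeR 4.0.16, R 4.3.3) were 0.83, 0.95, 0.93 and 1.35 in the low and high sitosterol, ergosterol and stigmasterol livers and 0.99 and 1.01 in the adrenals. Log2 ratios used a prior count of 0.5, with exact Clopper-Pearson 95% intervals from the conditional binomial (scipy 1.17.1). They cover counting error only, since PCR copies are not independent molecules. A fold against 0 counts used 3 counts per library as the floor.

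The 9 genes and the 17 other lists were chosen with earlier results of these data known. Named genes were the 9, up to 4 per list by the stigmasterol ratio and up to 2 by the high sitosterol ratio, and the nearest profiles (log2 of scaled CPM plus 0.5, centred over the 4 livers). Alb, Abcg8 and Eif2s3y were added to check the libraries, and Gpm6a and Aqp1 after their values were seen. Some genes that the rule names are left out of the text. Coordinates are from GENCODE (GRCm38) and promoters from RefSeq. Alternatives were library totals, DESeq2 1.42.0 size factors, TMM over the 6 libraries, log2 of TPM plus 0.1, no filter, a prior count of 2 and a 4-fold limit. Calls on TPM needed 2-fold or more but no counting interval.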

Additional observations from a re-analysis of the deposited data

How the results depend on the processing

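The count of the 9 genes called higher in the stigmasterol liver was 9 against low sitosterol and against ergosterol under each alternative run, and 8 or 9 against high sitosterol (9 on library totals and TPM, where Sox9 was called at 1.15 and 1.28). On TPM more of all analysed genes were called against low sitosterol too, with 95.2% of calls higher, against 73.5% on scaled CPM. The count of 9 there stands beside a larger share of all genes, whose totals are given below. Of the log2 values of single genes over the 9 comparisons and the alternatives, 440 stayed within their counting interval, 68 moved beyond it and 6 changed sign as called values. On TPM the genes called numbered 2 instead of 4 for high against low sitosterol (Cldn4 and Cldn7 were lost, and on library totals Cldn7), 1 instead of 0 for ergosterol against low sitosterol (Krt23, also on library totals, 1), 2 instead of 4 for ergosterol against high sitosterol and 3 instead of 7 for the low sitosterol adrenal against liver. With a 4-fold limit they numbered 1 for high against low sitosterol and 2 for ergosterol against high sitosterol. With no filter, 1 was called between the adrenals (Cftr, on 3 against 10 counts) instead of 0. Called values that changed sign were Krt7 (0.01 on library totals, 0.36 on TPM) and Krt19 (0.33 and 0.88) for the low sitosterol adrenal against liver, and Cftr (0.23) and Spp1 (0.21) on TPM for the high sitosterol adrenal against liver. Values that were not called changed sign there too, for Krt7 (0.46 and 1.85) and Krt19 (0.68 and 1.09) in the high sitosterol pair and for Cftr (1.17 and 0.45) and Cldn4 (0.24 and 0.12) in the low sitosterol pair, on library totals and TPM. The cause was not tested.

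Library totals moved the median of all analysed genes by 0.69 with stigmasterol, 0.20 with high sitosterol and 0.16 with ergosterol against low sitosterol, and TPM by 0.86, 0.26 and 0.34. The share of calls that were higher was then 92.9%, 78.4% and 65.1% on library totals and 95.2%, 81.5% and 80.4% on TPM, against 73.5%, 66.8% and 50.9%. For stigmasterol the median of the 9 genes was 4.34 on library totals and 4.24 on TPM. Against high sitosterol and ergosterol, the share of higher calls for stigmasterol was 91.8% and 90.4% on library totals and 93.8% and 90.2% on TPM, against 74.6% and 73.1%. For ergosterol against high sitosterol it was 52.4% on TPM, against 40.8%. For the adrenals against liver it was 87.5% and 86.2% on library totals and 90.8% and 89.2% on TPM, against 60.8% and 58.5%. All genes called numbered 6534 on TPM and 3939 otherwise for stigmasterol against low sitosterol, and 4666 and 2945 against high sitosterol. Calls on TPM needed no counting interval, so these totals differ in the rule as well as in the scaling. With no filter they numbered 2734 instead of 1733 for high and 2422 instead of 1586 for ergosterol against low sitosterol, and 1714 instead of 871 between the adrenals. A 4-fold limit left, against low sitosterol, 1707 genes for stigmasterol, 559 for high sitosterol and 434 for ergosterol, 1152 for stigmasterol and 531 for ergosterol against high sitosterol, 1592 for stigmasterol against ergosterol, 164 between the adrenals (against 871), and 5067 and 4804 for the adrenals against liver.

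No paired analysis was possible because each group had 1 library and the labels give no replicate numbers. Cldn4 (1 to 9 counts) and Cftr (5 to 7 counts) in the livers other than stigmasterol limit the precision of their ratios.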

Other observations

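The genes next to the 9 on the chromosome did not all share their pattern. Cldn3, at 39280 bases from Cldn4, had 91.9, 102, 99.9 and 122.5 scaled CPM in the low and high sitosterol, ergosterol and stigmasterol livers, a log2 ratio of 0.41 for stigmasterol against low sitosterol. Elp5, at 337 bases from Cldn7, was at -0.45, and Slc2a4 on its other side was called lower at -1.52. Calm2, beside Epcam, was at 0.45, and Slc39a11 and Kcnj2, beside Sox9, were at 0.24 and 0.60. Of 18 neighbours 5 were at 0 counts in the 4 livers. Of the 18, 5 were called higher and 1 lower, where 21.6% and 7.8% of the analysed genes were. Those called higher were Pkd2, a gene of the primary cilium at 18400 bases from Spp1, at 1.05, Krt80 beside Krt7 at 2.07, Cttnbp2 beside Cftr at 1.42, and Krt20 beside Krt23 and Asz1 beside Cftr, which were at 0 counts in the low sitosterol liver and at 0.381 and 0.631 scaled CPM in the stigmasterol liver. Krt15 and Krt9, beside Krt19, were at 0 counts in the 4 livers. These neighbours were read after the values of the 9 genes were known. They were called without the filter of 1 CPM, which Krt80, Krt20 and Asz1 did not reach in any liver.

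The ratio of estimated count to TPM follows the mean length of the transcripts to which reads of a gene were assigned. Relative to the low sitosterol liver it was 1.81 for Krt7 in the high sitosterol liver and 1.01 in the stigmasterol liver, and for Cftr 1.39 in both. It was 1.00 in each library for Krt23, Epcam, Sox9 and Cldn4. For Krt7 the log2 ratio of high to low sitosterol was -0.35 on scaled CPM and -0.75 on TPM, so the size of that difference depends on how reads were assigned among its transcripts.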
